A study of Mus musculus with 12 samples.

Results

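Transcripts of 10 genes that release, store and take up fatty acids were followed in mouse neutrophils, out of 23621 genes in the count table. They encode the endothelial lipase Lipg, the lipoprotein lipase Lpl, the intracellular lipases Pnpla2, Lipe and Mgll, the lipid droplet proteins Plin2 and Hilpda, the fatty acid receptor Cd36, the acyl-CoA synthetase Acsl1 and the acyltransferase Dgat1. The genes were taken by symbol, and all 10 had a row. Lipg was chosen by its measured counts, which differed greatly between the blood fractions and naive cells, so its values are a description without a test. For the other genes the choice was made by function, with earlier results of these data known.

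RNA was sequenced from 12 neutrophil samples of female Balb/c mice aged 8 weeks. Low-density neutrophils (LDN) and high-density neutrophils (HDN) were fractions of the peripheral blood of mice bearing liver metastases, with replicates 3, 4, 5 and 7 in each. Naive neutrophils came from bone marrow, with replicates 1 to 4. By its title the study concerned immature low-density neutrophils, their use of fuels and the growth of breast cancer in the liver. No agent and no genetic change is named for any group. LDN and HDN differ from Naive in tissue as well as in tumour burden, and their count columns carry a date-like tag that the Naive columns lack, so tissue, tumour and that tag cannot be told apart in any comparison with Naive. The labels do not say whether replicates were separate animals or pools, and p-values then cover no more than the variation among the libraries at hand.

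Cells keep spare fatty acids as triglyceride in lipid droplets, which perilipins such as Plin2 coat. Pnpla2 takes the first fatty acid off a triglyceride, Lipe acts on the diglyceride and Mgll on the monoglyceride that remains, while Dgat1 closes the path in the other direction by adding the last fatty acid. Lpl and Lipg are secreted and act outside the cell, on lipoprotein triglyceride and mainly on lipoprotein phospholipid. Neutrophils draw most of their energy from glucose, and fatty acids released from stores can feed their mitochondria while they mature.

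Total counts were 23181686 to 26456768 in LDN, 20049857 to 30044508 in HDN and 18113922 to 27741885 in Naive. A floor of 3 reads, the limit that a count of 0 allows, came to between 0.125 and 0.153 CPM in LDN, 0.0954 to 0.145 CPM in HDN and 0.111 to 0.153 CPM in Naive. CPM gives reads relative to the total of a library, and all CPM values here also carry edgeR's TMM scaling for library composition. The summed level of the 9 neutrophil markers with a row was 165000 to 213000 CPM in LDN, 79100 to 129000 CPM in HDN and 139000 to 172000 CPM in Naive, so neutrophil transcripts were abundant in every library. Monocyte and macrophage markers summed to 328 to 361 CPM in LDN, 352 to 677 CPM in HDN and 647 to 873 CPM in Naive. Most of that sum in Naive was Ly6c2 and Csf1r, with means of 360 and 319 CPM, while Cd68, Ccr2, Fcgr1 and Adgre1 were lowest in Naive. T cell and natural killer cell markers summed to 33.1 to 49.8 CPM in LDN, 3.47 to 18.1 CPM in HDN and 193 to 267 CPM in Naive. Most of this was Cd3d, with means of 34.7 CPM in LDN, 8.11 CPM in HDN and 214 CPM in Naive. Cd3e, Cd4 and Cd8a were lowest in Naive, so genes of both lists differed in order. The 8 epithelial markers summed to 11.1 to 71.3 CPM in LDN, 11.6 to 65.1 CPM in HDN and 0.258 to 0.458 CPM in Naive, an order shared by Lipg, Plin2 and Hilpda. Most of that sum in both blood fractions was Cdh1, while the keratins Krt5, Krt14 and Krt19 had 0 reads in every library. The 8 eosinophil markers summed to 13.7 to 23.7 CPM in LDN, 40.5 to 86.8 CPM in HDN and 17.3 to 73.5 CPM in Naive, so that HDN lay above LDN, as for Pnpla2 and Lipe, and overlapped Naive, and most of it in both blood fractions was Siglecf, while Epx had 0 reads in HDN. The 7 adipocyte markers summed to 2.35 to 3.12 CPM in LDN, 3.63 to 7.61 CPM in HDN and 2.27 to 2.77 CPM in Naive. HDN was highest, as for Pnpla2 and Lipe, and most was Retn. Platelet and megakaryocyte markers summed to 28.9 to 34.3 CPM in LDN, 10.5 to 12.1 CPM in HDN and 114 to 125 CPM in Naive. Lpl and Mgll had that order, though Itga2b was highest in HDN. B cell markers summed to 1.26 to 6.03 CPM in LDN, 0.305 to 2.06 CPM in HDN and 16.2 to 43.8 CPM in Naive. The part of all these other cells in the differences described here was not tested. In such bulk samples, fewer cells of a type and less RNA per cell cannot be told apart.

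Against Naive, both blood fractions had more Plin2 and Hilpda and less Lpl, Mgll, Acsl1 and Dgat1. HDN also had more Pnpla2 and Lipe, and between the blood fractions these intracellular lipases were lower in LDN, with Mgll and a few reads of Lpl higher in LDN. Of the 10 genes, 9 passed the filter on low counts, and 8 of these were tested in edgeR's quasi-likelihood fit of 10604 genes, at a Benjamini-Hochberg adjusted p under 0.05. Lpl passed that filter only through its Naive reads, so it had to differ from Naive and is described there without a test and left out of the counts against Naive. Of the 8, 4 were called between LDN and HDN, where 46.3% of all genes tested were called. In LDN 2 were higher, as were 26% of all genes, and 2 lower, as were 20.3%. Lpl, with few reads in either blood fraction, was 1 of the 4. Without it 3 of 7 were called, 1 higher and 2 lower. Against Naive, 7 of 7 were called in HDN, where 59.8% of all genes were called, 4 of them higher, as were 30% of all genes, and 3 lower, as were 29.9%. In LDN 5 of 7 were called against Naive, where 54.2% of all genes were, 2 higher, as were 27.4% of all genes, and 3 lower, as were 26.8%. With shares of all genes this high, such counts say little by themselves. The groups of 4 libraries did not overlap for 4 of the 8 genes between LDN and HDN, or 3 of 7 without Lpl, against 39.2% of all genes. The gap of Lpl lay between 1 read in LDN 5 and 1 read in HDN 7, set apart only by scaling. There was no overlap for 7 of 7 between HDN and Naive, against 53.3%, and for 5 of 7 between LDN and Naive, against 55.3%. The median log2 fold change of all genes tested was 0.02 for LDN over HDN, 0.04 for HDN over Naive and 0.01 for LDN over Naive. The comparisons with Naive share the Naive libraries, and their values are set side by side only.

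**Figure D1:**
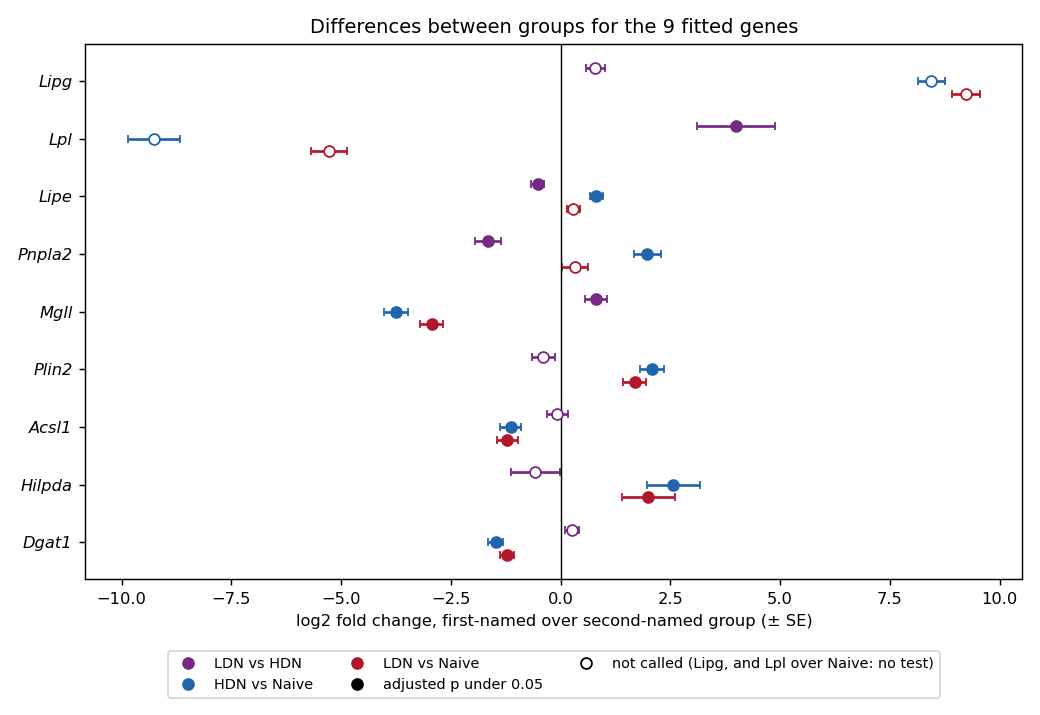
Log2 fold change of the 9 fitted genes, with its standard error, for LDN over HDN, HDN over Naive and LDN over Naive. Filled points passed an adjusted p under 0.05 and open points did not, with Lipg, and Lpl over Naive, open because they were not tested. Lipg lies far to the right at 9.23 in LDN and 8.44 in HDN over Naive, Lpl far to the left, where the HDN value rests on 1 read and its size depends on the fit.

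Lipg, an endothelial lipase that frees fatty acids from the phospholipid of high-density lipoproteins, was a high transcript in both blood fractions and near absent in Naive. It had 1145, 1308, 1252 and 1154 CPM in LDN replicates 3, 4, 5 and 7. It had 686.2, 1031, 593.4 and 491.9 CPM in HDN replicates 3, 4, 5 and 7, and 2.06, 1.22, 2.29 and 2.58 CPM in Naive replicates 1 to 4. All LDN libraries were above all HDN libraries, HDN 4 was the closest to LDN, and no library of either came near Naive. In reads, these were 24518 to 28363 in LDN, 12889 to 32439 in HDN and 33 to 54 in Naive, so the Naive level also lay well above the floor. Lipg held 0.103 to 0.116% of all counts in LDN, where it ranked 109 to 126 among genes, 0.0599 to 0.108% in HDN at rank 137 to 287, and 0.000127 to 0.00028% in Naive at rank 8156 to 9011. The log2 fold change was 9.23 ± 0.32 (SE) in LDN over Naive, which is 602-fold, 8.44 ± 0.31 in HDN over Naive, which is 347-fold, and 0.79 ± 0.22 in LDN over HDN, which is 1.73-fold. Endothelial cells are a usual source of Lipg. Of their 8 markers Tek, Emcn and Cldn5 had 0 reads in all 12 libraries, and Cdh5, the endothelial cadherin, had 2 reads in LDN, 0 in HDN and 7 in Naive. The 8 summed to 17.9 to 25.7 CPM in LDN, 6.49 to 14.5 CPM in HDN and 7.34 to 10.5 CPM in Naive, so the sum was highest in LDN, as was Lipg. Most of it was Pecam1, with a mean of 20.5 CPM in LDN, 7.77 CPM in HDN and 5.56 CPM in Naive. The part of endothelial cells in the Lipg level was not tested.

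**Figure D2:**
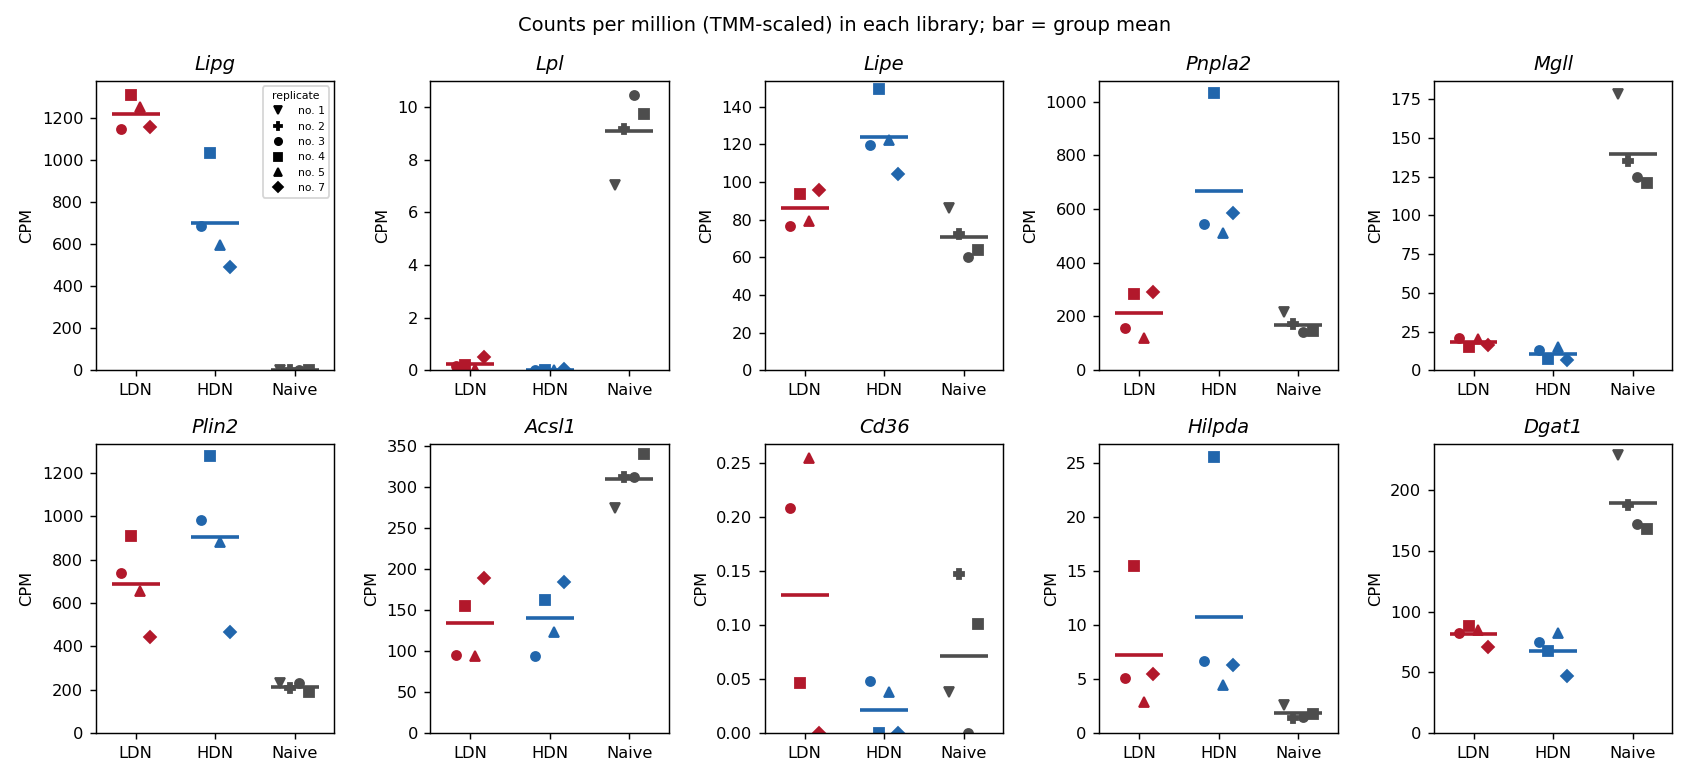
CPM of each of the 10 genes in every library, LDN at the left, HDN in the middle and Naive at the right, with a bar at the group mean and marker shapes for the replicate number. Each axis is linear with its own scale. Lipg, Plin2 and Hilpda are lowest in Naive, Lpl, Mgll, Acsl1 and Dgat1 are highest there, and Cd36 stays within a few reads of 0 throughout.

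Against Naive, Lpl, which frees fatty acids from circulating triglyceride, ran the opposite way to Lipg, while both were higher in LDN than in HDN. Lpl had 4, 4, 1 and 11 reads in LDN replicates 3, 4, 5 and 7. It had 0, 0, 0 and 1 reads in the HDN libraries, and 184, 249, 206 and 193 reads in Naive replicates 1 to 4. Every Naive library was above every library from blood, and HDN was at or under the floor of 3 reads throughout. By summed reads per library size, Lpl was 938-fold lower in HDN than in Naive, with a 95% counting interval of 168 to 37100, and 38.9-fold lower in LDN than in Naive, with an interval of 25 to 64. LDN had 20 reads in all and HDN 1, a ratio of 24.1 with an interval of 3.86 to 1000. In edgeR's quasi-likelihood fit the Benjamini-Hochberg adjusted p of Lpl was 0.00252 for LDN over HDN, where the fitted log2 fold change was 3.99 ± 0.89 (SE) and was 5.47 without HDN 7, which held the only read. Macrophages are a known source of Lpl. The complement genes C1qa, C1qb and C1qc of macrophages had 14, 13 and 12 reads in LDN, 0 reads each in HDN, and 73, 68 and 63 reads in Naive. These 3 were picked after their values were seen, and the whole list of 12 monocyte and macrophage markers was not lower in HDN than in LDN, as given above. The part of such cells in the Lpl reads was not tested. Gpihbp1, which carries Lpl to the vessel surface, had 0 reads in all libraries.

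Of the proteins that hold these secreted lipases in check, Angptl4, an inhibitor of Lpl, was detected with few reads. Angptl4 had 12, 20, 3 and 2 reads in LDN replicates 3, 4, 5 and 7, 11, 64, 10 and 15 reads in HDN replicates 3, 4, 5 and 7, and 5, 7, 1 and 4 reads in Naive replicates 1 to 4. HDN 4 stood above all others and LDN overlapped both groups. Angptl4 rose in HDN against Naive by 2.28 ± 0.72 on the log2 scale (edgeR adjusted p = 0.0142), and the call was lost without HDN 4, at 1.43 and an adjusted p of 0.0755. Furin, a protease that cleaves secreted lipases and can inactivate them, averaged 513 ± 35.2 CPM in LDN, 688 ± 164 CPM in HDN and 317 ± 45.3 CPM in Naive (SD, n = 4 each). Furin rose by 1.12 ± 0.17 in HDN and by 0.69 ± 0.17 in LDN over Naive on the log2 scale (edgeR adjusted p = 6.94e-05 and 0.00343). Sel1l, a membrane protein of the endoplasmic reticulum that Lpl needs for its release, rose by 0.72 ± 0.11 in HDN and by 0.70 ± 0.11 in LDN over Naive (edgeR adjusted p = 7.73e-05 and 0.000135).

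Inside the cell, Pnpla2, the adipose triglyceride lipase, was highest in HDN and lower in LDN. It had 155.9, 284.9, 118.1 and 292.9 CPM in LDN replicates 3, 4, 5 and 7. It had 544.6, 1031, 510.4 and 584.9 CPM in HDN replicates 3, 4, 5 and 7, and 216.7, 171.8, 143.4 and 147.2 CPM in Naive replicates 1 to 4. All HDN libraries lay above all others, HDN 4 most of all, and LDN fell into a lower pair, 3 and 5, and a higher pair, 4 and 7. LDN 5 lay below the Naive range, LDN 3 within it and the higher pair above it. Pnpla2 fell by 1.65 ± 0.30 on the log2 scale in LDN against HDN, 3.13-fold (edgeR adjusted p = 0.000655), and rose by 1.98 ± 0.31 in HDN against Naive, 3.93-fold (adjusted p = 7.71e-05). LDN over Naive gave 0.33 ± 0.30 with an adjusted p of 0.37.

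Lipe, the hormone-sensitive lipase, had the same order with a smaller spread. Lipe had 76.65, 93.37, 79.06 and 95.89 CPM in LDN replicates 3, 4, 5 and 7, 119.5, 149.2, 122.3 and 104.2 CPM in HDN replicates 3, 4, 5 and 7, and 85.94, 72.13, 60.25 and 63.92 CPM in Naive replicates 1 to 4. HDN was above the other groups without overlap, and LDN and Naive overlapped through Naive 1. Lipe fell by 0.52 ± 0.14 on the log2 scale in LDN against HDN (edgeR adjusted p = 0.00944) and rose by 0.81 ± 0.14 in HDN against Naive (adjusted p = 0.000261). For LDN over Naive the value was 0.29 ± 0.14 with an adjusted p of 0.106, and without Naive 1 it was 0.35 with 0.044. An antisense transcript overlaps the exons of Lipe in GENCODE vM21 and had 357 reads in all libraries together, and the strand setting of the counting is not given in the sources used here.

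Mgll, the monoglyceride lipase that ends the path, went the other way. It had 21.04, 15.27, 20.33 and 16.43 CPM in LDN replicates 3, 4, 5 and 7, 13.23, 7.09, 14.96 and 6.37 CPM in HDN replicates 3, 4, 5 and 7, and 178.2, 135.1, 124.5 and 120.9 CPM in Naive replicates 1 to 4. Naive stood several times above all blood libraries, and the lowest LDN library lay just above the highest HDN library. Mgll fell by 3.75 ± 0.27 on the log2 scale in HDN, 13.4-fold, and fell by 2.93 ± 0.26 in LDN, 7.65-fold, against Naive (edgeR adjusted p = 6.16e-08 and 8.46e-07). Between the blood fractions Mgll was 0.81 ± 0.25 higher in LDN (adjusted p = 0.0177), a call that was lost without LDN 3 (0.68, adjusted p = 0.0663), without LDN 5 (0.70, adjusted p = 0.0593) and in a fit of these groups alone (0.76, adjusted p = 0.0572).

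The partners of Pnpla2 changed too. Abhd5, the coactivator that Pnpla2 needs for full activity, had 101.3, 115.5, 103.1 and 107.9 CPM in LDN replicates 3, 4, 5 and 7, 40.47, 34.9, 36.89 and 25.23 CPM in HDN replicates 3, 4, 5 and 7, and 132.5, 141.5, 154.9 and 160.4 CPM in Naive replicates 1 to 4. No groups overlapped, and HDN, where Pnpla2 was highest, had the least Abhd5. Abhd5 rose by 1.64 ± 0.14 on the log2 scale in LDN against HDN and fell by 2.10 ± 0.14 in HDN and fell by 0.46 ± 0.14 in LDN against Naive (edgeR adjusted p = 1.76e-06, 2.72e-08 and 0.0105). G0s2, a small inhibitor of Pnpla2, had 40.96, 91.29, 45.86 and 110.4 CPM in LDN replicates 3, 4, 5 and 7, 31.07, 70.25, 33.76 and 68.35 CPM in HDN replicates 3, 4, 5 and 7, and 834.7, 607.7, 347.7 and 333.5 CPM in Naive replicates 1 to 4. Replicates 4 and 7 were above 3 and 5 in both blood fractions, and Naive was above all of them. G0s2 fell by 3.38 ± 0.43 in HDN and fell by 2.88 ± 0.42 in LDN against Naive on the log2 scale (edgeR adjusted p = 1.18e-05 and 5.88e-05). LDN over HDN gave 0.50 ± 0.39 with an adjusted p of 0.311, and with the replicate number as a block 0.43 with 0.00426.

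The balance of Pnpla2 with these partners inside a library can be read from ratios of reads, which need no scaling between libraries. The ratios were chosen after the values were seen and carry no test. Pnpla2 had 1.15 to 2.71 reads for each read of Abhd5 in LDN, 13.5 to 29.5 in HDN and 0.918 to 1.64 in Naive. For each read of the inhibitor G0s2, Pnpla2 had 2.58 to 3.81 reads in LDN, 8.56 to 17.5 in HDN and 0.26 to 0.441 in Naive. HDN was the high group for both, and LDN stood apart from Naive for G0s2 but overlapped it for Abhd5.

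**Figure D3:**
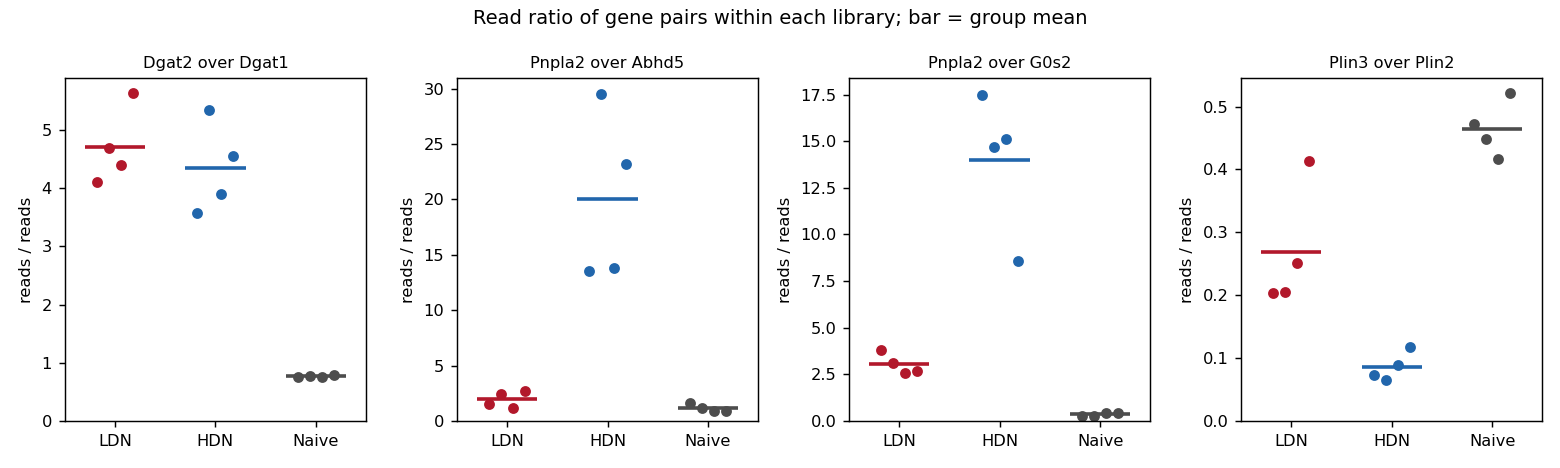
Ratio of the reads of gene pairs within each library, LDN at the left, HDN in the middle and Naive at the right, with a bar at the group mean. Pnpla2 over Abhd5 averages 1.97 in LDN, 20 in HDN and 1.17 in Naive, Pnpla2 over G0s2 3.04, 14 and 0.349 in the same order, Dgat2 over Dgat1 4.71, 4.35 and 0.768, and Plin3 over Plin2 0.268, 0.086 and 0.465.

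Plin2, the perilipin that coats droplets in most cells outside fat, was higher in both blood fractions than in Naive. It had 739, 907.6, 655.5 and 444.5 CPM in LDN replicates 3, 4, 5 and 7, 984.5, 1281, 879.8 and 466.8 CPM in HDN replicates 3, 4, 5 and 7, and 228.3, 208.3, 230 and 188.1 CPM in Naive replicates 1 to 4. Replicate 7 was the lowest and replicate 4 the highest of both blood fractions, and even replicate 7 was above every Naive library. Plin2 rose by 2.08 ± 0.27 on the log2 scale in HDN and by 1.68 ± 0.27 in LDN over Naive (edgeR adjusted p = 1.63e-05 and 0.000132). LDN over HDN gave -0.40 ± 0.26 with an adjusted p of 0.231.

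Hilpda, a droplet protein that inhibits Pnpla2 and is known as a gene induced by low oxygen, followed Plin2 at a much lower level. Hilpda had 5.09, 15.45, 2.91 and 5.49 CPM in LDN replicates 3, 4, 5 and 7, 6.64, 25.59, 4.42 and 6.34 CPM in HDN replicates 3, 4, 5 and 7, and 2.6, 1.4, 1.47 and 1.77 CPM in Naive replicates 1 to 4. Replicate 4 was far above the others in both blood fractions, and the lowest blood library, LDN 5, was just above Naive 1. Hilpda rose by 2.57 ± 0.61 on the log2 scale in HDN and by 1.99 ± 0.60 in LDN over Naive (edgeR adjusted p = 0.00241 and 0.0129). Without HDN 4 the rise in HDN was 1.67 with an adjusted p of 0.00724, and without LDN 4 the value in LDN was 1.26 with 0.0664, so the call was lost. LDN over HDN gave -0.57 ± 0.56 with an adjusted p of 0.419, and 0.33 with 0.57 without HDN 4, where LDN 4 of the same number was kept.

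Both genes are known targets of hypoxia-inducible factors, and Plin2 also of the nuclear receptors that sense fatty acids. Hif1a, the transcript of a hypoxia-inducible factor whose activity is set largely at the protein, had 128.7, 49.59, 159.1 and 63.68 CPM in LDN replicates 3, 4, 5 and 7, 136.1, 56.17, 154 and 132.7 CPM in HDN replicates 3, 4, 5 and 7, and 20.22, 29.07, 22.42 and 21.71 CPM in Naive replicates 1 to 4. Hif1a was lowest in replicate 4 of both blood fractions, where Hilpda was highest, and every blood library was above Naive. Hif1a rose by 2.36 ± 0.37 on the log2 scale in HDN and by 2.10 ± 0.37 in LDN over Naive (edgeR adjusted p = 9.29e-05 and 0.000298). Ppard, a fatty acid receptor of the nucleus, averaged 78.5 ± 9.01 CPM in LDN, 75.7 ± 16.4 CPM in HDN and 28.5 ± 4.05 CPM in Naive (SD, n = 4 each), and rose by 1.41 ± 0.17 in HDN and by 1.46 ± 0.17 in LDN over Naive (edgeR adjusted p = 8e-06 and 8.79e-06). Pparg, the related receptor of fat cells, lay below the filter with 10 reads in LDN, 4 in HDN and 20 in Naive.

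The promoters of Plin2 and Hilpda are shown because both genes rose in the blood fractions together with Hif1a, and that of Pnpla2 because its level separated HDN from the rest. Lipe separated HDN in the same way, and its promoter is not printed. RefSeq gives a pair of overlapping starts for Hilpda, of which the one printed holds more of the letters searched. Each sequence runs from 250 bases before to 50 after the start of the gene, as RefSeq gives it on GRCm38.p6, and capitals mark the letters ACGTG or GCGTG, the core of a site for hypoxia-inducible factors, on either strand.
Plin2, minus strand, chr4:86670010-86670309: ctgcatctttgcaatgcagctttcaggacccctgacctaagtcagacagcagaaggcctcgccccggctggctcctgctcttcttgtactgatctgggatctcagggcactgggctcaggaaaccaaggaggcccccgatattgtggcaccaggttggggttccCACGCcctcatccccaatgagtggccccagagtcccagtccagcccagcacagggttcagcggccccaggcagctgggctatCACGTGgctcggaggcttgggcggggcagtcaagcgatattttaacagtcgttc
Hilpda, plus strand, chr6:29272376-29272675: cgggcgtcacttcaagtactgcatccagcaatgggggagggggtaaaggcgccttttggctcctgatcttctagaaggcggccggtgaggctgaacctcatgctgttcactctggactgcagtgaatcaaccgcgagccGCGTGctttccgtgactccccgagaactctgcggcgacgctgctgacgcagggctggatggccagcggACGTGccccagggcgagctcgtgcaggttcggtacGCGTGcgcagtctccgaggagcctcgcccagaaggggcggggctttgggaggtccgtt
Pnpla2, plus strand, chr7:141454938-141455237: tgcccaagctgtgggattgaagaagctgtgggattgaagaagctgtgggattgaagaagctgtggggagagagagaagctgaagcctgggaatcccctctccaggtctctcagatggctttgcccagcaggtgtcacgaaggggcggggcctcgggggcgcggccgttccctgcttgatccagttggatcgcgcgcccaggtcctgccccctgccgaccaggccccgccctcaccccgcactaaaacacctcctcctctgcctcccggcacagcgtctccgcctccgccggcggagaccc
In Plin2 the palindrome CACGTG holds ACGTG on both strands at positions -4 and -3 from the start of the gene, and GCGTG lies on the strand opposite to the gene at -86. Hilpda has ACGTG at -43 and GCGTG at -111 and -8 on its own strand. The other Hilpda window, chr6:29272238-29272537, which is not printed, holds GCGTG at 27 and no ACGTG. Pnpla2 has neither in this window. Over 32851 mouse promoters of 300 bases in the same table, 19.6% held ACGTG, 32.4% held GCGTG and 43.8% held either, so matches like these are common. Promoters of 7 of the 10 genes were searched, and those of Lipg, Lpl and Dgat1 were not. Those of Mgll, Lipe and Acsl1, 3 genes that did not rise together, held such letters as well. In a window of Lipe, which like Pnpla2 was highest in HDN, ACGTG lay at -155 and -154 and GCGTG at -75. The repeat of AGGTCA with 1 base between, a form of the site of the receptors that sense fatty acids, was searched as exact letters only. It was found in 0.0396% of all promoters and in none of these 7 genes. So rare a string would be missing from most sets of this size, and its absence says little. The forkhead core GTAAACA, in 3.65% of all promoters, was found in a promoter of Mgll and of Lipe. These are matches of letters and not measured binding.

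Both enzymes on the list that lead fatty acids into storage fell in the blood fractions. Acsl1, which links fatty acids to coenzyme A, had 95.44, 155.4, 94.23 and 189.5 CPM in LDN replicates 3, 4, 5 and 7, 93.93, 162.5, 122.5 and 183.5 CPM in HDN replicates 3, 4, 5 and 7, and 273.8, 312.6, 312.2 and 340.4 CPM in Naive replicates 1 to 4. The blood fractions shared a range with replicates 4 and 7 on top, and Naive lay above it. Acsl1 fell by 1.14 ± 0.24 on the log2 scale in HDN and fell by 1.21 ± 0.24 in LDN against Naive (edgeR adjusted p = 0.00109 and 0.000827), while LDN over HDN gave -0.07 ± 0.24 with an adjusted p of 0.824.

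Dgat1, which completes triglycerides in the endoplasmic reticulum, had 82.5, 88.16, 84.88 and 70.43 CPM in LDN replicates 3, 4, 5 and 7, 74.64, 67.42, 82.26 and 47.32 CPM in HDN replicates 3, 4, 5 and 7, and 229.3, 187.7, 172.1 and 167.9 CPM in Naive replicates 1 to 4. Naive was above all libraries from blood, and LDN and HDN overlapped. Dgat1 fell by 1.48 ± 0.17 on the log2 scale in HDN and fell by 1.22 ± 0.16 in LDN against Naive (edgeR adjusted p = 3.86e-06 and 3.19e-05), and LDN over HDN gave 0.26 ± 0.16 with an adjusted p of 0.199. Dgat2, the unrelated enzyme of the same reaction that works at the droplet, changed in the opposite direction. It averaged 381 ± 32.8 CPM in LDN, 291 ± 63.3 CPM in HDN and 145 ± 19.8 CPM in Naive (SD, n = 4 each), and rose by 1.00 ± 0.16 in HDN and by 1.39 ± 0.16 in LDN over Naive on the log2 scale (edgeR adjusted p = 8.37e-05 and 6.86e-06). Dgat2 had 4.1 to 5.64 reads for each read of Dgat1 in LDN, 3.58 to 5.35 in HDN and 0.755 to 0.796 in Naive, a ratio chosen after its values were seen and given without a test. The fractions from blood overlapped in this ratio and stood far above Naive.

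Cd36, the scavenger receptor through which many cells take up fatty acids, was not detectable above the floor in most libraries. It had 5, 1, 5 and 0 reads in LDN replicates 3, 4, 5 and 7, 1, 0, 1 and 0 reads in HDN replicates 3, 4, 5 and 7, and 1, 4, 0 and 2 reads in Naive replicates 1 to 4. The groups overlapped, and Cd36 lay below the filter. By summed reads per library size the ratio of LDN to HDN was 6.63 with a 95% counting interval of 1.45 to 61.6, that of HDN to Naive 0.253 (0.0257 to 1.33) and that of LDN to Naive 1.68 (0.595 to 5.11), intervals that cover counting error only.

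Samples of LDN and HDN with the same replicate number deviated together from their group means. Correlations over all genes tested were 0.315 to 0.76 for these and -0.608 to 0.412 for unlike numbers, so the ranges overlap. The numbers were taken to pair LDN and HDN, an inference from these same data on which the block calls rest. Within pairs, LDN was lower than HDN in 4 of 4 for Pnpla2 (log2 ratio -2.11 to -0.998), Lipe (-0.676 to -0.12), Plin2 (-0.497 to -0.0706) and Hilpda (-0.728 to -0.206). It was higher in 4 of 4 for Lipg (0.344 to 1.23), Mgll (0.442 to 1.37) and Dgat1 (0.0453 to 0.574), and Acsl1 was divided 2 and 2. With the replicate number as a block in edgeR's fit of the 8 LDN and HDN libraries, Plin2 (-0.40, adjusted p = 0.0128) and Hilpda (-0.53, adjusted p = 0.0108) were called lower in LDN, which they were not without it. The block called 5 of the 7 tested genes that passed the filter in these libraries, 1 higher and 4 lower, where it called 5709 of 9983 genes. Among the partners it also called Dgat2 higher in LDN (0.36, adjusted p = 0.0404), Angptl4 lower (-1.12, adjusted p = 0.0386) and Furin lower (-0.44, adjusted p = 0.0316).

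**Figure D4:**
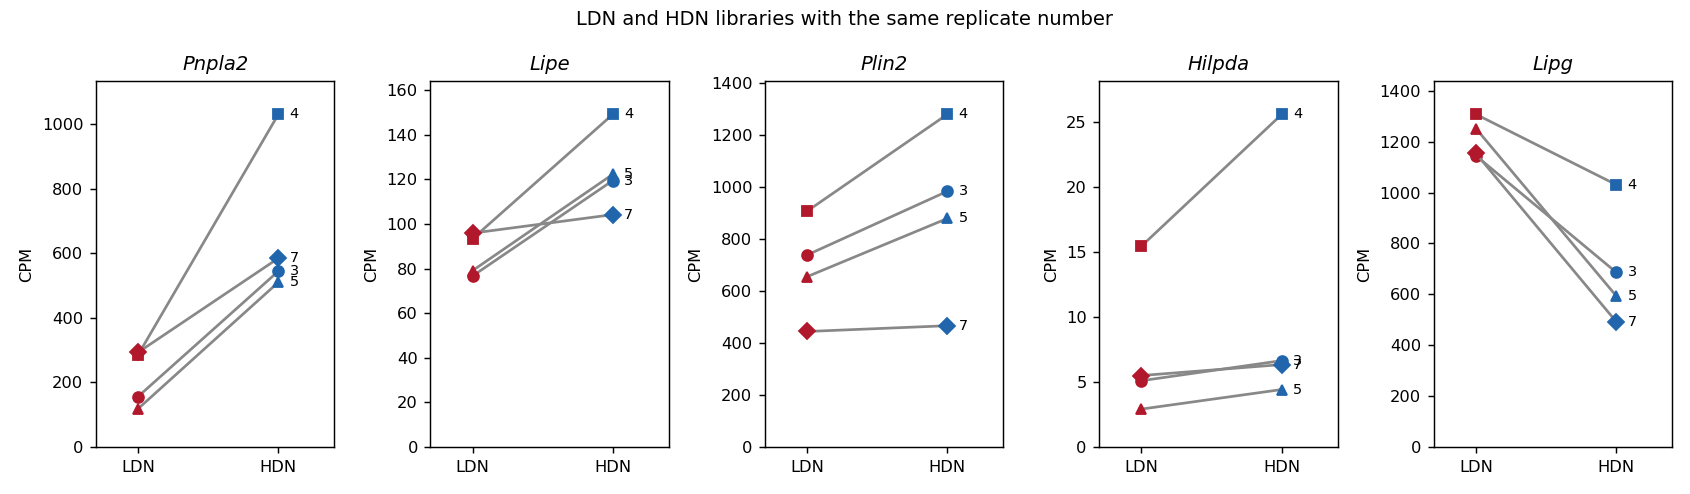
CPM of Pnpla2, Lipe, Plin2, Hilpda and Lipg in LDN at the left and HDN at the right of each panel, on linear axes that start at 0, with a line for each shared replicate number. Pnpla2, Lipe, Plin2 and Hilpda are lower in LDN in all 4 pairs and Lipg is higher in all 4. Replicate 4 is the top line of Plin2 and Hilpda.

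Levels of different genes can be set beside each other only per length, here as CPM per kilobase of the joined exons of GENCODE vM21. In LDN the order was Plin2 (364 ± 102 CPM per kilobase), Lipg (321 ± 20.8), Pnpla2 (81.1 ± 34), Dgat1 (43.2 ± 4.1), Acsl1 (32 ± 11.2), Lipe (15.7 ± 1.79), Hilpda (6.56 ± 5.07) and Mgll (3.79 ± 0.591), then Lpl (0.0556 ± 0.0481) and Cd36 at 0.0361 (SD, n = 4). In HDN it was Plin2 (478 ± 178 CPM per kilobase), Pnpla2 (254 ± 92.9), Lipg (185 ± 61.8), Dgat1 (36 ± 7.95), Acsl1 (33.7 ± 9.62), Lipe (22.6 ± 3.41), Hilpda (9.74 ± 9.02) and Mgll (2.16 ± 0.896), then Cd36 at 0.00612 and Lpl at 0.00232 (SD, n = 4). In Naive it was Plin2 (113 ± 10.4 CPM per kilobase), Dgat1 (100 ± 14.8), Acsl1 (74.3 ± 6.56), Pnpla2 (64.7 ± 12.8), Mgll (29 ± 5.48), Lipe (12.9 ± 2.08), Lpl (2.21 ± 0.36), Hilpda (1.64 ± 0.498), Lipg (0.538 ± 0.154) and Cd36 at 0.0203 (SD, n = 4). Plin2 led in all 3 groups. Neighbours in LDN whose 4 libraries overlapped were Plin2 and Lipg, Pnpla2 and Dgat1, Dgat1 and Acsl1, Lipe and Hilpda, Hilpda and Mgll, and Lpl and Cd36. In HDN they were Plin2 and Pnpla2, Pnpla2 and Lipg, Dgat1 and Acsl1, Acsl1 and Lipe, Lipe and Hilpda, and Cd36 and Lpl. In Naive they were Plin2 and Dgat1, Acsl1 and Pnpla2, and Lpl and Hilpda, and the other neighbours in each group did not overlap.

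Other genes of lipid storage and breakdown were counted from 7 lists by function. Of 149 listed genes, 130 had a row and 94 were tested. Between LDN and HDN 30 were higher and 16 lower in LDN, 48.9% of the 94 beside the 46.3% of all genes. Against Naive, 42 were higher and 29 lower in HDN (75.5%, beside 59.8%) and 44 were higher and 20 lower in LDN (68.1%, beside 54.2%). Some of the 94 passed the low-count filter only through Naive or only through blood, so the filter itself favoured a difference from Naive. Ces1d, for example, averaged 0 CPM in LDN and HDN and 5.62 CPM in Naive. Unlike Lpl, such genes were left in the counts against Naive, here and in each list, as in the shares of all genes. The median log2 fold change over the 94 was 0.19 for LDN over HDN, 0.21 for HDN over Naive and 0.45 for LDN over Naive.

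**Figure D5:**
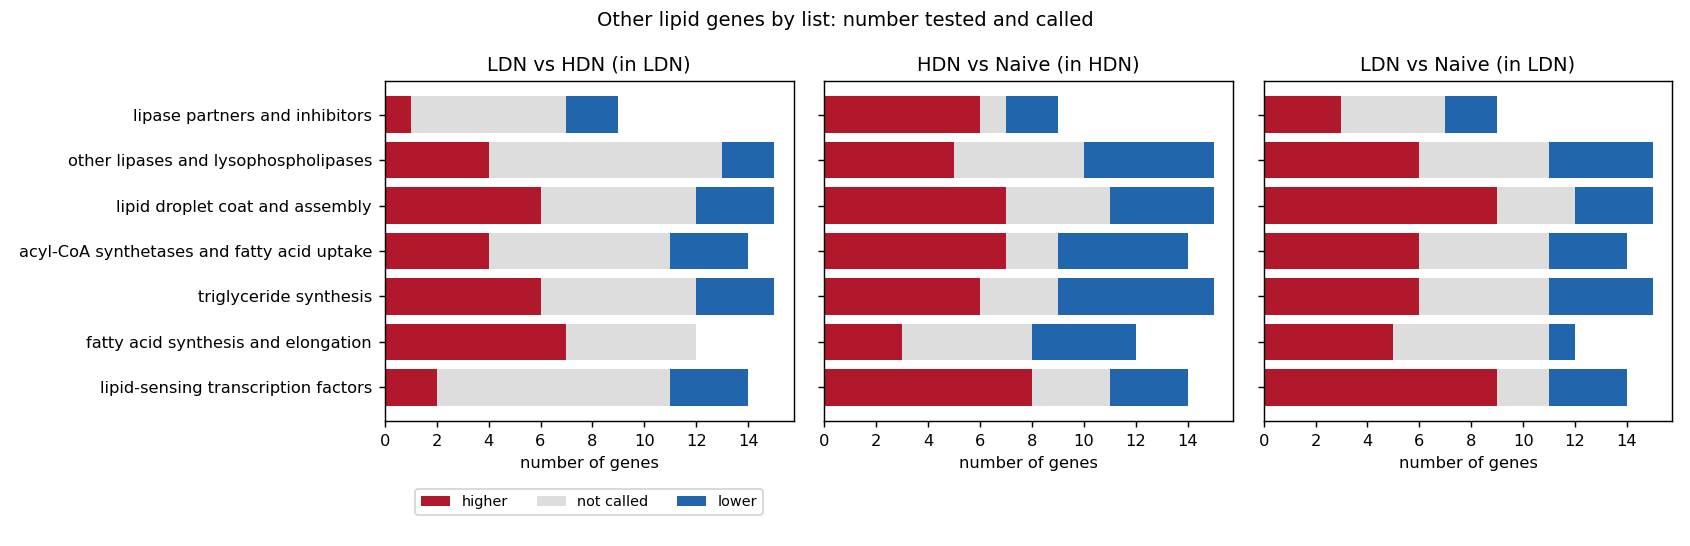
Number of genes tested in each of 7 lists of other lipid genes, divided into those called higher, not called and called lower in LDN over HDN, HDN over Naive and LDN over Naive, from left to right. Fatty acid synthesis and elongation has 7 higher and 0 lower of 12 in LDN over HDN. The other lists have calls in both directions in all 3 comparisons.

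Among 15 genes of the droplet coat and of droplet assembly, 6 were higher and 3 lower in LDN than in HDN, with a median log2 fold change of 0.15, beside 26% of all genes higher and 20.3% lower. Against Naive, 7 were higher and 4 lower in HDN (median 0.28), beside 30% and 29.9% of all genes, and 9 higher and 3 lower in LDN (median 0.66), beside 27.4% and 26.8%. Plin3, a perilipin that moves onto small new droplets, averaged 171 ± 16.9 CPM in LDN, 72 ± 12.6 CPM in HDN and 98.8 ± 6.5 CPM in Naive (SD, n = 4 each). It rose by 1.25 ± 0.13 in LDN against HDN and by 0.79 ± 0.13 in LDN against Naive, and fell by 0.46 ± 0.13 in HDN against Naive, on the log2 scale (edgeR adjusted p = 1.08e-05, 0.000211 and 0.00928). In reads per read of Plin2, Plin3 had 0.203 to 0.413 in LDN, 0.0649 to 0.117 in HDN and 0.416 to 0.522 in Naive, a ratio chosen after its values were seen. Plin5, a perilipin that tethers droplets to mitochondria in muscle and liver, averaged 23.6 ± 8.95 CPM in LDN, 9.06 ± 1.88 CPM in HDN and 5.54 ± 1.05 CPM in Naive (SD, n = 4 each). It rose by 1.38 ± 0.26 in LDN against HDN and by 2.09 ± 0.27 in LDN against Naive (edgeR adjusted p = 0.000817 and 2.11e-05). HDN over Naive gave 0.70 ± 0.26 for Plin5 with an adjusted p of 0.0328, lost without HDN 3, HDN 4, HDN 5, Naive 3 or Naive 4, in limma-voom and under 1 other scaling, at adjusted p-values of 0.0582 to 0.0913.

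Of 12 genes of fatty acid synthesis and elongation tested, 7 were higher and 0 lower in LDN than in HDN, beside 26% and 20.3% of all genes, with a median log2 fold change of 1.07 beside 0.02 over all genes. No desaturase was among the 12. Against Naive, 3 were higher and 4 lower in HDN, beside 30% and 29.9% of all genes, and 5 higher and 1 lower in LDN, beside 27.4% and 26.8%. Fasn, the fatty acid synthase, had 9.77, 15.27, 7.51 and 16.25 CPM in LDN replicates 3, 4, 5 and 7, 0.969, 1.97, 2.13 and 0.878 CPM in HDN replicates 3, 4, 5 and 7, and 3.29, 4.43, 4.83 and 5.66 CPM in Naive replicates 1 to 4. No groups overlapped, with LDN at the top and HDN at the bottom. Fasn rose by 3.02 ± 0.34 in LDN against HDN and by 1.43 ± 0.31 in LDN against Naive, and fell by 1.59 ± 0.33 in HDN against Naive, on the log2 scale (edgeR adjusted p = 1.53e-05, 0.0017 and 0.000997). Acaca, the acetyl-CoA carboxylase that makes its substrate, rose by 1.52 ± 0.27 in LDN against HDN, and Tecr, a reductase of chain elongation, by 1.38 ± 0.14 (edgeR adjusted p = 0.000582 and 5.35e-06). Against Naive, Tecr fell by 2.43 ± 0.14 in HDN and fell by 1.05 ± 0.14 in LDN, while Srebf1, a transcription factor of lipid synthesis, rose by 1.65 ± 0.14 in HDN and by 1.56 ± 0.14 in LDN (edgeR adjusted p = 7.94e-09, 2.09e-05, 2.79e-07 and 9.17e-07). Srebf1 shares exon bases with Rai1 on the opposite strand in GENCODE vM21.

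Among 15 genes of triglyceride and sterol ester synthesis, 6 were higher and 3 lower in LDN than in HDN, beside 26% and 20.3% of all genes. Against Naive 6 were higher and 6 lower in HDN, beside 30% and 29.9% of all genes, and 6 higher and 4 lower in LDN, beside 27.4% and 26.8%. Soat2, which esterifies cholesterol, averaged 65.1 ± 8.9 CPM in LDN, 116 ± 10.9 CPM in HDN and 2.4 ± 0.484 CPM in Naive (SD, n = 4 each), a rise of 5.59 ± 0.17 in HDN and of 4.75 ± 0.17 in LDN over Naive on the log2 scale (edgeR adjusted p = 1.1e-10 and 2.28e-10). Igfbp6, its neighbour on the same strand, rose by 9.02 ± 0.34 in HDN and by 7.35 ± 0.32 in LDN over Naive (edgeR adjusted p = 2.42e-10 and 1.37e-09), and reads that run from Igfbp6 into Soat2 were not tested. Agpat4, an acyltransferase of phosphatidic acid synthesis, fell by 4.12 ± 0.24 in HDN and fell by 2.22 ± 0.22 in LDN against Naive (edgeR adjusted p = 8.5e-09 and 1.76e-06).

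Among 14 genes of acyl-CoA synthesis and fatty acid uptake, 4 were higher and 3 lower in LDN than in HDN, beside 26% and 20.3% of all genes. Against Naive 7 were higher and 5 lower in HDN, beside 30% and 29.9% of all genes, and 6 higher and 3 lower in LDN, beside 27.4% and 26.8%. Scarb1, the receptor for high-density lipoprotein, the particle on which Lipg acts, averaged 83 ± 4.62 CPM in LDN, 66.8 ± 18 CPM in HDN and 9.63 ± 1.22 CPM in Naive (SD, n = 4 each). It rose by 2.79 ± 0.19 in HDN and by 3.11 ± 0.20 in LDN over Naive on the log2 scale (edgeR adjusted p = 3.95e-08 and 3.58e-08). Fabp5, a fatty acid carrier of the cytosol, rose by 2.77 ± 0.18 in HDN and by 2.13 ± 0.18 in LDN over Naive, and Dbi, which binds acyl-CoA, by 2.34 ± 0.21 and 2.83 ± 0.22 in the same order (edgeR adjusted p = 2.55e-08, 5.44e-07, 5.39e-07 and 2.12e-07). Slc27a4, a transporter that also activates fatty acids, averaged 376 ± 81.2 CPM in LDN, 150 ± 44.6 CPM in HDN and 526 ± 80.7 CPM in Naive (SD, n = 4 each), and rose by 1.33 ± 0.22 in LDN against HDN and fell by 1.81 ± 0.23 in HDN against Naive (edgeR adjusted p = 0.000342 and 1.08e-05).

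The counts of the last 3 lists stand beside the same shares of all genes, 26% higher and 20.3% lower in LDN than in HDN, 30% and 29.9% in HDN against Naive, and 27.4% and 26.8% in LDN against Naive. Of 9 lipase partners and inhibitors, 1 was higher and 2 lower in LDN than in HDN, and against Naive 6 were higher and 2 lower in HDN and 3 higher and 2 lower in LDN. Apoe, a lipoprotein ligand, averaged 16.5 ± 1.85 CPM in LDN, 69.9 ± 13.5 CPM in HDN and 19.2 ± 3.38 CPM in Naive (SD, n = 4 each), and fell by 2.08 ± 0.17 on the log2 scale in LDN against HDN (edgeR adjusted p = 1.52e-06). Of 15 other lipases, 4 were higher and 2 lower in LDN than in HDN, and against Naive 5 were higher and 5 lower in HDN and 6 higher and 4 lower in LDN. Pnpla1, a relative of Pnpla2 that makes skin ceramides, averaged 55.3 ± 8.17 CPM in LDN, 6.74 ± 2.7 CPM in HDN and 15.8 ± 2.62 CPM in Naive (SD, n = 4 each), and rose by 3.04 ± 0.28 in LDN against HDN (edgeR adjusted p = 3.24e-06). Of 14 transcription factors that respond to lipids or control their genes, 2 were higher and 3 lower in LDN than in HDN, and against Naive 8 were higher and 3 lower in HDN and 9 higher and 3 lower in LDN. Foxo1, known to drive Pnpla2 in fat cells, averaged 9.64 ± 1.98 CPM in LDN, 21.1 ± 2.4 CPM in HDN and 4.57 ± 0.554 CPM in Naive (SD, n = 4 each), and fell by 1.13 ± 0.17 on the log2 scale in LDN against HDN and rose by 2.21 ± 0.18 in HDN against Naive (edgeR adjusted p = 0.000157 and 1.73e-07).

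Among 4789 genes whose mean log2 CPM reached 4, the pattern over the 12 libraries most like that of Lipg belonged to Fam20c, a kinase of secreted proteins, with a Pearson r of log2 CPM of 0.998. It was followed by Acvr1b at 0.997, Nos2 at 0.995, Casp6 at 0.994 and Smad1 at 0.993. Since the libraries fall into groups, such an r mostly reflects the groups, and about the group means it was 0.737 for Fam20c and 0.382 to 0.609 for the other 4. Slc45a4 was most like Plin2, with r = 0.975 over all libraries and 0.907 about the group means, and Spata2, 1600014C10Rik, Abi3 and Rnf34 came next. Lamp1, a lysosome membrane protein, was most like Hilpda, with r = 0.969 over all libraries and 0.942 about the group means, ahead of Phc2, Sec61a1, Tmed2 and Med15. About the group means, Pnpla2 varied with Hilpda (r = 0.836) and Lipe (r = 0.805), and Mgll with Dgat1 (r = 0.797) and against Acsl1 (r = -0.773). These values describe 12 libraries that share groups and composition and carry no test.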

How the data were processed

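RNA from LDN, HDN and Naive neutrophils, 4 libraries each, was extracted with TRIzol and columns and made into stranded polyadenylated libraries, per the labels' protocols. CASAVA 1.8.2, Trimmomatic, STAR and DESeq2 1.16.1 are named, per the submitters' processing notes. Genome build, annotation and strand setting: not given in the sources used here. The deposited table holds raw counts per gene, not normalized. The authors also deposited 3 tables of comparisons that give, per the file headers, a mean normalized signal, a log2 fold change with its error, a test score and p-values, and no value is printed from them. All 12 columns matched a sample and 0 were left over.

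Of 15762 genes with reads, 10604 passed edgeR's filterByExpr, with 99.967% of counts. Libraries were scaled by TMM (factors 0.825 to 0.927 in LDN, 1.01 to 1.28 in HDN, 0.943 to 1.09 in Naive), so a fold change is set against most other genes. A robust quasi-likelihood fit in edgeR 4.0.16 (R 4.3.3) took all 12 libraries and no term but the group, and calls needed an adjusted p (Benjamini-Hochberg, over all genes) under 0.05. Standard errors are the fold change over the root of its F. The fit was also run on simulated counts with 200 genes changed in LDN. Far more genes were called in the data, so that run cannot check the scaling for them. Log2 CPM used a prior count of 2. Counting intervals are exact at 95% and cover counting error only, since reads without molecular identifiers are not independent molecules.

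Replicates 3, 4, 5 and 7 recur in LDN and HDN. Their deviations correlated at 0.315 to 0.76 for the same number and at -0.608 to 0.412 for other pairs, so the numbers were taken to pair them, from the data and not from a label. The Naive numbers paired with neither. No replicates were alike within counting noise (chi-square per gene 3.42 to 196). Naive 3 and Naive 4 were by far the closest at 3.42, and every other pair within a group was at 15.8 or more. Whether these Naive libraries shared a source was not tested, and if so the Naive spread is understated. Alternatives were RLE scaling, library sizes without the 20 most abundant genes, no filter, a CPM of at least 1 in 4 libraries, DESeq2 1.42.0, limma-voom (limma 3.58.1), only the groups compared, a replicate block and each library left out.

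The 10 genes and all lists were chosen with earlier results of these data known. Named beside the 10 were a fixed set of partners and, from each list, up to 3 genes of largest change past the threshold whose mean log2 CPM reached 1, of which some are left out here. Of 149 listed genes 19 had no row under their symbol, Lipa among them, and 36 lay below the filter. Promoter sequences are RefSeq's on GRCm38.p6, and exon lengths and overlaps are from GENCODE vM21.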

Additional observations from a re-analysis of the deposited data

Results flagged for a closer look

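In 9 of 138 groups of 4 libraries, 3 of them among the 10 genes, the highest or lowest library lay further from the rest than Dixon's 95% limit allows. Chance alone gives about 1 in 20 such groups. HDN 4 accounted for 4 of the 9. It had 1031 CPM of Pnpla2 (other HDN libraries 510.4 to 584.9), 25.59 CPM of Hilpda (others 4.416 to 6.64), 2.034 CPM of Angptl4 (others 0.3807 to 0.5725) and 7.597 CPM of Acot13, an acyl-CoA thioesterase (others 5.139 to 5.477). Without HDN 4, the call of Angptl4 and of Acot13 in HDN over Naive was lost, at adjusted p = 0.0755 and 0.0676 in edgeR's fit, while Pnpla2 and Hilpda stayed called.

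In HDN 7, Lpl had 0.03816 CPM from a single read where the other HDN libraries had 0. With the others equal at 0, any lone read passes Dixon's limit, so this flag says nothing about Lpl. HDN 7 was also the low library of Ppard, with 51.37 CPM (others 80.39 to 86.33), and of Auh, an RNA-binding hydratase listed with droplet proteins, with 38.85 CPM (others 49.15 to 51.12). Naive 1 was the high library of the transcription factor Cebpa, with 99.36 CPM (others 59.53 to 64.13), and the low library of Sel1l, with 70.15 CPM (others 92.94 to 97.34).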

How the results depend on the processing

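Over 20 alternatives, 424 values of the tested genes among the 10, without Lipg and without Lpl over Naive, kept their direction and their side of the threshold, 5 were newly called, 4 lost a call and 5 changed sign. The number called was 2 to 5 of the 8 for LDN over HDN, and 2 to 5 of 7 without Lpl. Also without Lpl, it was 7 of 7 in every alternative for HDN over Naive and 4 to 6 of 7 for LDN over Naive. It was 2 for LDN over HDN (0 higher, 2 lower of 7) when only these groups were fitted, where Lpl no longer passed the filter and Mgll was not called. The number over all genes was 4064 to 5709, 5654 to 7150 and 5106 to 6284 in the same order. Lipg stayed within 0.66 to 1.04, 8.2 to 8.59 and 8.94 to 9.37 on the log2 scale.

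Library sizes without the 20 most abundant genes moved the median of all genes to -0.12 for LDN over HDN, -0.11 for HDN over Naive and -0.28 for LDN over Naive. The calls over all genes were then 2245 higher and 2776 lower, 2488 and 3676, and 1852 and 3968, beside 2761 and 2153, 3177 and 3167, and 2910 and 2840 in the TMM fit. Under it Ppard (-0.073) for LDN over HDN and Nceh1 (-0.038) and Ubxn8 (-0.043) for LDN over Naive changed sign, none of them called.

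Signs that turned when a library was left out belonged to uncalled differences of LDN over HDN. They were Acsl1 (-0.35 to 0.082 with each library left out, turned without LDN 3, LDN 5, HDN 4 or HDN 7), Hilpda (-1.30 to 0.33, turned without HDN 4), Ppard (-0.093 to 0.12, turned without LDN 3, LDN 5, HDN 7 or Naive 1), Spg20 (-0.28 to 0.31, turned without LDN 4) and Srebf1 (-0.21 to 0.028, turned without HDN 4). Plin2 in LDN over HDN was newly called without HDN 7 (-0.61, edgeR adjusted p = 0.0245). Each such fit without an LDN or HDN library kept the other library of its number, and Hilpda was lower in LDN in 4 of 4 pairs. The causes were not tested.

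The replicate block over 12 libraries, in which Naive numbers carry no known pairing, called 6 of the same 7 for LDN over Naive, Lipe included (0.52, adjusted p = 0.025), gave 5654 and 5106 calls over all genes for HDN and LDN over Naive, and turned the uncalled Apoe (0.035) and Nceh1 (-0.038) for LDN over Naive. It lost the fall of Plin3 in HDN (adjusted p = 0.0759). The block over the 8 LDN and HDN libraries is described with the pairs, and changed no other call of the 10 genes. Lpl could not be fitted there or with these groups alone, since its reads were too few. Near the floor of 3 reads, Lpl in HDN, Cd36 and Angptl4 rest on few reads, and the sizes of their folds are uncertain.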
